A study of Mus musculus with 3 samples.

Results

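Neuregulins are EGF-like growth factors that axons present to the glia around them, and the ErbB receptor tyrosine kinases receive them. In peripheral nerves, neuregulin 1 on the axon is known to act on a dimer of ERBB3, which binds the ligand but has little kinase activity of its own, and ERBB2, which has the kinase but no known soluble ligand. This pairing is known for the survival and growth of Schwann cell precursors. The family was followed here as 10 genes of the 41388 listed in the deposited count files, taken by symbol: the 6 ligand genes Nrg1, Nrg2, Nrg3, Nrg4, Btc and Hbegf and the 4 receptor genes Egfr, Erbb2, Erbb3 and Erbb4. All 10 were found. They were taken by name, with earlier results of these data known.

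The samples form 1 group: EGFP-positive cells sorted by flow cytometry from dorsal root ganglia, which hold the cell bodies of sensory neurons, of C57BL/6 mouse embryos at 14.5 days post coitum. The genotype is labelled Tg(Ret-EGFP)SJ, whereas the series text speaks of EGFP knocked into the Ret locus of heterozygous mice, so whether the embryos kept 2 working Ret alleles is not known. The reporter marks cells in which the Ret locus is active, whatever their type, and no Ret-negative population is part of the series. Libraries A, B and D are pools: 100 ganglia of 5 embryos, 100 ganglia of 6 embryos and 80 ganglia of 4 embryos, from levels T11 to S1 per the labels. Each pool mixed male and female embryos (3 and 2 in A, 2 and 4 in B, 3 and 1 in D). Total counts ran from 20181558 to 29061086, and the counts of every pair of libraries differed by at least 45.5 times the variance that counting error gives. Sensory neuron markers were abundant: all 14 of that list exceeded a mean of 10 TPM (counts per base of gene length, scaled to the same sum in every library), with a summed level between 41759 and 46679 TPM. Schwann and satellite glia genes were also detected, 10 of 14 at a mean of 1 TPM or more, against 33.6% of all listed genes. Their summed level lay between 627 and 1020 TPM. Most of it came from S100b and Fabp7, at 343 and 310 TPM on average, and the list median was 8.87 TPM. In such bulk samples, fewer cells of a type and less RNA per cell cannot be told apart, and no value below says which cell held a transcript.

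All 6 ligands share a fold, the EGF-like domain, held together by 6 cysteines and sufficient for receptor binding. The coding bases of this domain are shown for Nrg1, Nrg3, Nrg4 and Btc, to let the 6 cysteine codons be compared. The stretches between the second and the fourth cysteine differ in length, and the domains run from 108 to 120 bases. They are spliced, 5′ to 3′, from GENCODE M21 transcripts (GRCm38), with the codons for the 6 cysteines in capitals.

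Nrg1 (120 bases, within chr8:31837698-31849398, minus strand): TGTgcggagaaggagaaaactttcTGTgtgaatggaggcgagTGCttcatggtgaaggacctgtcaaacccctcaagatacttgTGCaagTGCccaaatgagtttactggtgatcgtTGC
Nrg3 (117 bases, within chr14:38668261-39012054, minus strand): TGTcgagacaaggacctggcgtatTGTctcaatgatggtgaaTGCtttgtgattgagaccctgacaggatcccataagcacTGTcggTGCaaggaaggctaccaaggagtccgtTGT
Nrg4 (111 bases, within chr9:55242177-55280969, minus strand): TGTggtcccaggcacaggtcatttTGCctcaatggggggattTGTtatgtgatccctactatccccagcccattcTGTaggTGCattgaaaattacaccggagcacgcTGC
Btc (108 bases, within chr5:91362421-91366197, minus strand): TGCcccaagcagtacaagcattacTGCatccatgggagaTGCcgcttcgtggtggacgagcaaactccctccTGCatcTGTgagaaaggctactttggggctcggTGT

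The sorted cells held much more ligand than receptor transcript, and as TPM each side was made up mostly of 1 gene. Of the 10 members, 4 reached a mean of 1 TPM, namely the ligand genes Nrg1, Nrg3 and Hbegf and the receptor gene Erbb3, while 33.6% of all listed genes did so. Nrg1 made up 93.9%, 91.0% and 91.8% of the summed TPM of the 6 ligands in libraries A, B and D. Erbb3 made up 86.9% ± 3.04 (SD, n = 3) of the summed TPM of the 4 receptors. These shares depend on the length used and were computed as TPM only. As CPM (counts scaled to the library total, with no length correction), Nrg1 had 197, 131 and 141 in A, B and D. Nrg3, the next ligand, had 20.4, 17.9 and 19.2. The ligand sum was 265, 175 and 165 TPM in A, B and D, and the receptor sum was 7.21, 9.90 and 4.01 TPM.

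**Figure D1:**
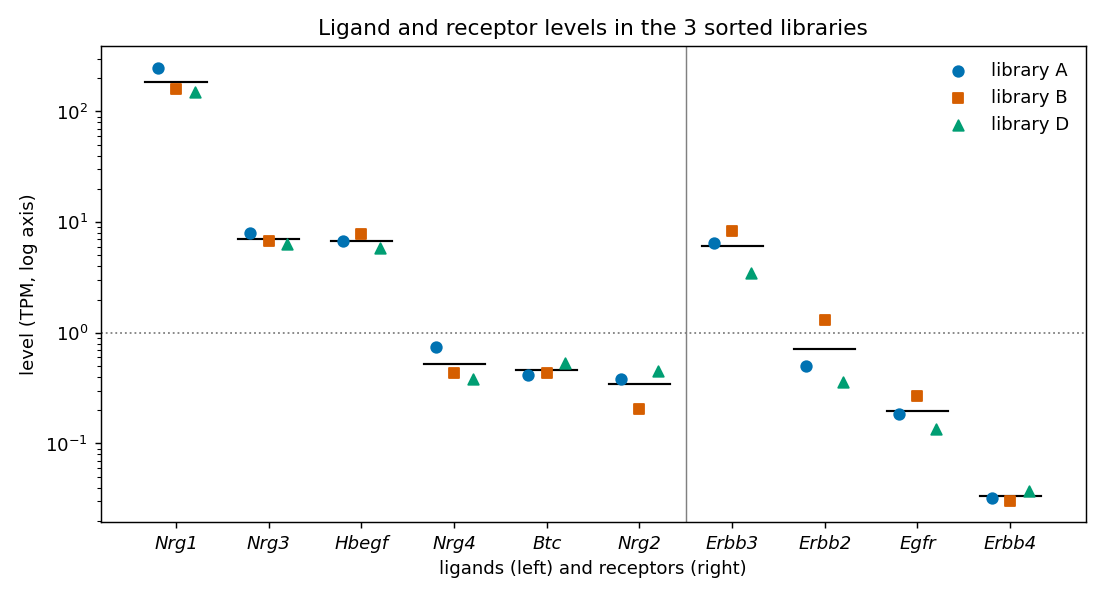
TPM of each ligand (left) and receptor (right) in libraries A, B and D on a log axis, with the mean of the 3 libraries as a bar and 1 TPM as a dotted line. Nrg1 lies between 151 and 249 TPM and above every other member, Nrg3, Hbegf and Erbb3 lie between 3.48 and 8.31 TPM, and Erbb4 lies lowest, between 0.0305 and 0.0375 TPM.

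Nrg1 (ENSMUSG00000062991, chromosome 8, 31818028 to 31918203, minus strand, GRCm38.p2) encodes the neuregulin whose membrane-held form on axons is known to control Schwann cell number and myelin. It had 3973, 2662 and 4112 counts in libraries A, B and D, which gave 249, 159 and 151 TPM. Its mean of 186 ± 54.5 TPM (SD, n = 3) placed it at rank 943 of the 41388 genes. Library A stood above the other libraries, which lay close together.

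What was counted for Nrg1 was a small part of the gene. The deposited model held 9 exons and 2103 bases, exactly the coding part of a single annotated transcript, and 20.3% of the 10351 exonic bases that GENCODE M21 gives the gene. Its first exon (31917537 to 31918203, 667 bases) encodes the cysteine-rich domain that defines type III neuregulin 1, and overlaps exons of 6 of the 18 annotated transcripts. The 6 annotated exons upstream of it were not counted, although 11 of the 18 transcripts start there, as types I and II are known to do. Of the alternative exons that close the EGF-like domain, the one for the beta end was counted (31837670 to 31837728, 59 bases, with exactly these ends in 9 of the 18 transcripts) and the one for the alpha end was not (31838261 to 31838328, 68 bases, in 7). The files give 1 count for the gene, so the types could not be told apart, and reads from shared exons of every type entered the value.

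**Figure D2:**
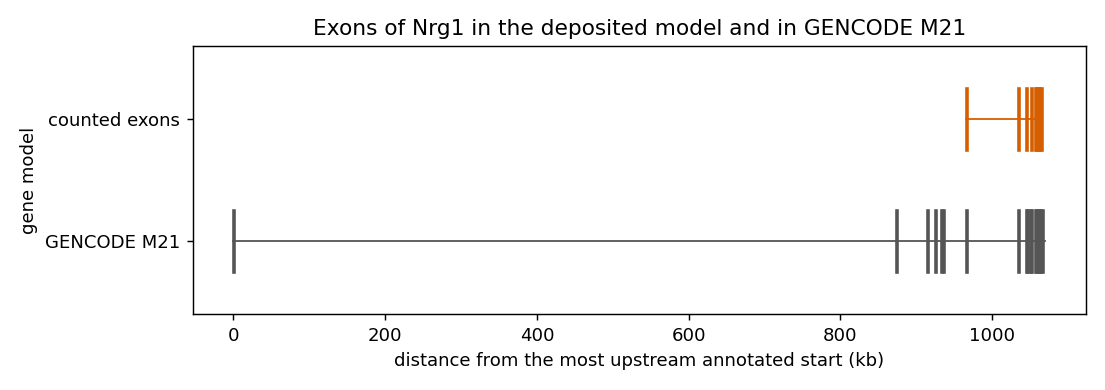
Exons of Nrg1 as vertical ticks along the gene, in kb from the most upstream annotated start, for the exons counted in the deposited files (above) and for all exons of GENCODE M21 (below). Introns are drawn to scale, ticks are not. The counted exons take up only the downstream 100 kb of a gene that spans 1069 kb.

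Nrg3 and Hbegf followed, at levels much below Nrg1. Nrg3 (ENSMUSG00000041014, chromosome 14, 38368952 to 39473088) encodes a neuregulin that binds ERBB4. It had 411, 365 and 558 counts and 7.95, 6.72 and 6.33 TPM in A, B and D, a mean of 7.00 ± 0.848 TPM (SD, n = 3). Hbegf (ENSMUSG00000024486, chromosome 18, 36504929 to 36515805) encodes heparin-binding EGF-like growth factor, a ligand of EGFR and ERBB4. It had 121, 149 and 178 counts and 6.73, 7.88 and 5.80 TPM, a mean of 6.80 ± 1.05 TPM. As TPM, both genes kept within a 1.36-fold range across the libraries, and their own order changed from library to library. As CPM, Nrg3 had 20.4, 17.9 and 19.2 and Hbegf 6.00, 7.32 and 6.13 in A, B and D, so Nrg3 was higher in each. Only 49.1% of the exonic bases that GENCODE M21 gives Hbegf were in the counted model.

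The remaining 3 ligand genes had low counts. Nrg4, which encodes a neuregulin specific for ERBB4, had 34, 21 and 30 counts in A, B and D, or 0.738, 0.434 and 0.382 TPM. Of its 6075 counted bases, 545 overlap exons of other genes on the opposite strand, Fbxo22 among them, so its value is uncertain. Btc, which encodes betacellulin, a ligand of EGFR and ERBB4, had 9, 10 and 20 counts, or 0.413, 0.437 and 0.537 TPM. Nrg2, which encodes a neuregulin that binds ERBB3 and ERBB4, had 9, 5 and 18 counts, or 0.385, 0.204 and 0.451 TPM. None of the 3 reached 1 TPM in a library, and their order differed between libraries.

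Among the receptors, Erbb3 (ENSMUSG00000018166, chromosome 10, 128567523 to 128589652, minus strand) was the highest in each library. It had 296, 398 and 271 counts in A, B and D and 6.49, 8.31 and 3.48 TPM, a mean of 6.09 ± 2.44 TPM (SD, n = 3). Library B was the highest and D the lowest, 2.39-fold apart. All 6016 exonic bases that GENCODE M21 gives Erbb3 were counted, of which 1996 are non-coding.

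Erbb2 (ENSMUSG00000062312, chromosome 11, 98412470 to 98437716), the kinase-active partner of ERBB3, was scarce. It had 20, 54 and 24 counts in A, B and D. Of its 5210 counted bases, 9 overlap exons of Mien1 on the opposite strand. Library B had 1.30 TPM (exact 95% Poisson interval 0.978 to 1.70), library A 0.506 TPM (0.309 to 0.782) and library D 0.356 TPM (0.228 to 0.530). The interval of B lies above those of A and D, but such intervals cover counting error only. The mean was 0.721 ± 0.508 TPM (SD, n = 3) and fell to 0.431 TPM without library B.

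The other receptors were lower still. Egfr (chromosome 11, 16752203 to 16918158), the receptor of EGF, had 16, 24 and 20 counts in A, B and D, or 0.186, 0.266 and 0.136 TPM. Erbb4 (chromosome 1, 68032186 to 69108059), which has its own kinase and binds all 4 neuregulins, had 3, 3 and 6 counts over 12355 counted bases. Library A had 0.0320 TPM (95% interval 0.00660 to 0.0936), library B 0.0305 TPM (0.00629 to 0.0891) and library D 0.0375 TPM (0.0138 to 0.0817). A count of 0 would have allowed up to 0.0320, 0.0305 and 0.0188 TPM at 3 counts, so Erbb4 stood at that floor in A and B.

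Ordered by mean TPM, Nrg1 stood alone at the top. Nrg3, Hbegf and Erbb3 came next, and the within-library log2 ratios of neighbours in that order (0.046 ± 0.25 for Nrg3 over Hbegf, 0.24 ± 0.44 for Hbegf over Erbb3) were smaller than their SD. This closeness depended on the length used. As CPM, Hbegf (6.00, 7.32 and 6.13 in A, B and D) lay below Nrg3 (20.4, 17.9 and 19.2) and Erbb3 (14.7, 19.6 and 9.33) in each library. A log2 ratio of 3.21 ± 0.51 separated Erbb3 from Erbb2, below which Nrg4, Btc, Nrg2 and Egfr followed with no neighbours apart by more than 1 SD. The ends of that stretch do differ, since Egfr lay below Erbb2 by more than 1 SD. Erbb4 lay below Egfr in every library.

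The comparison that the biology asks for sets ligands, known from axons, against receptors, known from glia, within each library. Such a ratio is free of differences in depth. In these bulk samples neither side was assigned to a cell type, and the part of the mix of cells in the ratios was not tested. Of 16 pairs of genes, 8 had at least 10 counts of both genes in each library and were computed. Nrg1 exceeded Erbb3 38.4-fold, 19.1-fold and 43.4-fold in A, B and D, a mean log2 ratio of 4.99 ± 0.64 (SD, n = 3). It exceeded Erbb2 492-fold, 122-fold and 424-fold in the same libraries, a log2 ratio of 8.20 ± 1.10 that was 8.84 without library B. For both receptors the ratio was lowest in B, the library in which Erbb3 and Erbb2 were highest. Hbegf exceeded Egfr 36.1-fold, 29.6-fold and 42.5-fold (log2 5.16 ± 0.26). The sum of all ligands exceeded that of all receptors with a log2 ratio of 4.90 ± 0.66. Each of these ratios was positive in 3 of 3 libraries, with p = 0.25 in the two-sided exact sign-flip permutation test. That is the smallest p that 3 libraries allow, so no ratio could pass 0.05, and for the pairs, adjusted over all 8, it became 0.286.

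The size of these ratios depended on the length used. As CPM, counts scaled to the library total with no length correction, the log2 ratio was 3.47 for Nrg1 over Erbb3, 6.89 for Nrg1 over Erbb2 and 2.90 for Hbegf over Egfr. With GENCODE M21 exon lengths, which divide the reads of the short counted Nrg1 model by the whole gene and so understate it, the ratios were 2.69, 5.90 and 4.13. The log2 ratio of summed ligands over summed receptors was 3.48 as CPM and 2.88 with GENCODE M21 lengths, against 4.90 as TPM. Each stayed positive. How far a counted model without untranslated ends raised or lowered the level of Nrg1 was not tested.

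Within the receptors, Erbb3 exceeded Erbb2 12.8-fold, 6.38-fold and 9.78-fold in A, B and D (log2 3.21 ± 0.51). Egfr lay below Erbb2 in all libraries, with log2 ratios of -1.44, -2.29 and -1.38 in A, B and D (mean -1.71 ± 0.51). As CPM this last ratio was -0.58. Within the ligands, Nrg1 exceeded Nrg3 31.3-fold, 23.6-fold and 23.9-fold in A, B and D (log2 4.70 ± 0.23). As CPM the log2 ratio was 3.01, and with GENCODE M21 lengths 2.40. It exceeded Hbegf 37.1-fold, 20.2-fold and 26.1-fold (log2 4.75 ± 0.44), or by 3.48 on the log2 scale with GENCODE M21 lengths. All 4 ratios had the same sign in 3 of 3 libraries (exact sign-flip permutation p = 0.25, adjusted 0.286).

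**Figure D3:**
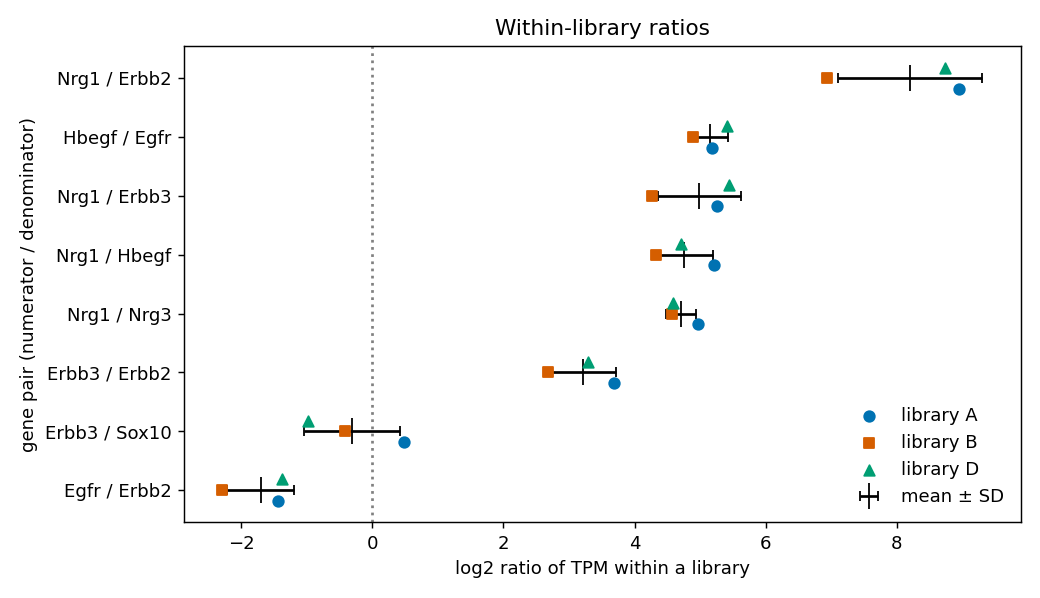
Log2 ratio of TPM within libraries A, B and D for the 8 computed gene pairs, with the mean and SD over the 3 libraries. Every pair except Erbb3 over Sox10 has all 3 points on 1 side of 0, and 4 pairs with Nrg1 on top lie above 4.

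Erbb3 was also set beside Sox10, the transcription factor that defines the neural crest glial lineage and on which glial Erbb3 is known to depend. Erbb3 had 6.49, 8.31 and 3.48 TPM in A, B and D, against 4.67, 11.1 and 6.86 TPM of Sox10. Erbb3 over Sox10 had log2 ratios of 0.48, -0.42 and -0.98 in those libraries, a mean of -0.31 ± 0.73 (two-sided exact sign-flip permutation p = 0.75, adjusted 0.75). The mean ratio was thus smaller than its SD, and its sign turned, to 0.028 without library D and to 0.84 as CPM. The 3 highest of the 14 listed glia genes lay far above either. S100b, a calcium-binding protein gene, averaged 343 ± 92.5 TPM and Fabp7, a fatty acid-binding protein gene, 310 ± 109 TPM. The endothelin receptor gene Ednrb averaged 82.2 ± 17.2 TPM (SD, n = 3 each). The list median was 8.87 ± 1.52 TPM. Other listed glia genes, named after their values were seen, averaged less than both Erbb3 and Sox10. These were Cdh19 (1.93 TPM), Sox2 (1.33), Dhh (0.516), Gjc3 (0.481), Foxd3 (0.311) and Gfap (0.0160).

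The libraries were then compared for each gene with edgeR's goodness-of-fit test, which asks whether a gene varied between them by more than other genes of its level. Of the 10 members, 7 passed the filter on low counts, and none of the 7 was called, against 0.177% of all 13530 genes tested. None had an unadjusted p under 0.05, as 827 of the 13530 genes did, and DESeq2 marked none as a dispersion outlier. Erbb2 had the lowest Benjamini-Hochberg adjusted p of the members, at 0.918 in edgeR, and between 0.775 and 1.00 over the alternatives. On simulated data of this design the test missed all of the smallest changes and most of the middle ones, so the lack of calls does not show that the members were alike in the libraries.

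Below that threshold, the receptors shared a direction in their values, not all of it beyond counting error. As log2 CPM relative to the gene's own mean, scaled between libraries by TMM, Erbb2 lay at -0.38, 0.92 and -0.54 in A, B and D. Erbb3 lay at 0.064, 0.43 and -0.49, and Egfr at -0.13, 0.35 and -0.23. All 3 receptors that passed the filter thus had their highest value in B, against 28.7% of the 13530 genes. Their lowest value was in D, for which no such share was computed. Egfr rested on 16, 24 and 20 counts in A, B and D, and its Poisson intervals as TPM overlapped between all libraries. Those of Erbb2 overlapped between A (0.309 to 0.782) and D (0.228 to 0.530), so its lowest library is undecided. The Erbb3 intervals did not overlap, but such intervals cover counting error only. Nrg1 was lowest in B on this scale, with 0.34, -0.30 and -0.042, whereas as TPM it was lowest in D.

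Marker lists of the cell types differed in where they were highest. Of the mesenchyme and pericyte genes that passed the filter, 4 of 8 were highest in B, against 28.7% of the 13530 genes. The median deviations of the 8 were -0.68, 0.58 and -0.35 in A, B and D. The summed level of the list was 19.5, 71.6 and 20.5 TPM, so this list had its highest sum in B. Of the Schwann and satellite glia genes, 5 of 9 were highest in B, also against 28.7%. Their median deviations of -0.54, 0.095 and 0.037, however, set A apart as low, with B and D close together. The summed level of all 14 glia genes was 627, 996 and 1020 TPM. Of the sensory neuron genes, 11 of 14 were highest in D, against 37.0% of the 13530 genes. Their median deviations were -0.11, -0.14 and 0.27 in A, B and D. Erbb3 was lowest in D. Of the 45 marker genes tested, 3 were called between the libraries, against 0.177% of all 13530 genes tested. The collagen gene Col1a1 was highest in B, at 3.68, 28.4 and 2.32 TPM in A, B and D. The globin genes Hbb-bs and Hbb-bt were highest in D, at 26.0, 28.5 and 115 TPM and at 26.1, 22.0 and 99.7 TPM. No gene of the glia, mesenchyme or sensory neuron list was without counts in all libraries. The part of these cells in the levels of the receptors was not tested.

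**Figure D4:**
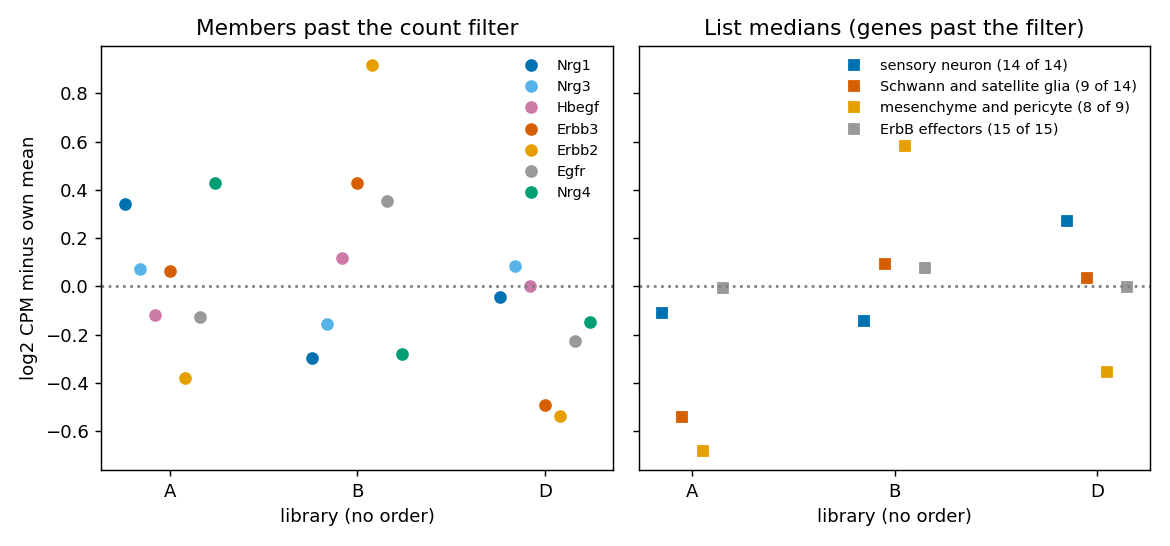
Log2 CPM minus the gene's own mean over the 3 libraries, for the 7 members that passed the count filter (left) and as the median of 4 gene lists (right), with the number of list genes that passed. Erbb2, Erbb3 and Egfr are highest in B, as is the mesenchyme and pericyte median, while Nrg1 is lowest in B on this scale.

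The genes closest to 3 members in this pattern were sought among the 84 marker and pathway genes that passed the filter, by Euclidean distance over the 3 libraries. For Nrg1 they were the melanoblast gene Tyrp1 (distance 0.158), the receptor partner Erbin (0.162) and the neuronal tubulin gene Tubb3 (0.222). For Erbb3 they were Cdh1, which encodes E-cadherin (0.172), the neurofilament gene Nefl (0.216) and the feedback inhibitor gene Errfi1 (0.220). For Erbb2 they were the collagen gene Col1a2 (0.153), the inhibitor gene Lrig1 (0.264) and the pericyte receptor gene Pdgfrb (0.343). Sox10 was among the 3 closest of neither receptor. With 3 libraries such likeness is loose: of all 13529 other genes, 370 lay as close to Nrg1 as Tyrp1, 362 as close to Erbb3 as Cdh1 and 25 as close to Erbb2 as Col1a2.

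Of the marker lists for other cells that use the pathway, the melanoblast, muscle and epithelial ones had 20.0%, 16.7% and 33.3% of genes at 1 TPM. The share of all listed genes was 33.6%. Some of the marker genes had levels near or above that of Erbb3. Of 5 melanoblast genes, 1 reached 1 TPM (Tyrp1, 1.80 TPM on average), and Tyr, the pigment enzyme gene, had no counts, which allows up to 0.120 TPM at 3 counts. Of 6 skeletal muscle genes, 1 reached 1 TPM (Tnnt1, 8.67 TPM), and Myog had no counts, which allows up to 0.265 TPM. Of 6 epithelial genes, 2 reached 1 TPM (Cdh1, at 5.54, 7.85 and 2.77 TPM in A, B and D, and Krt18, at 1.13 TPM on average), and Krt5 had no counts, which allows up to 0.181 TPM. The summed level of the melanoblast list lay between 1.65 and 2.70 TPM, that of the muscle list between 6.44 and 10.2 TPM and that of the epithelial list between 5.98 and 9.81 TPM. At least 1 TPM was reached by 1 of 6 endothelial, 3 of 6 macrophage, 2 of 5 sympathetic neuron and 5 of 6 erythroid genes, with summed levels of at most 4.64, 17.3, 7.89 and 304 TPM. As shares these were 16.7%, 50.0%, 40.0% and 83.3%, all but the endothelial one above the 33.6% of all listed genes.

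The rest of the pathway was described by 47 genes in 6 lists, with a median of 0.103 TPM over all listed genes for comparison. Of the 5 other EGF-family ligands, 2 reached 1 TPM. Areg, which encodes the EGFR ligand amphiregulin, was at 17.6, 16.1 and 9.60 TPM in A, B and D. As TPM it lay above Nrg3 and Hbegf in each library. The order turned as CPM, where Areg had 7.93, 7.57 and 5.13, below Nrg3 at 20.4, 17.9 and 19.2 in each library and below Hbegf, at 6.00, 7.32 and 6.13, in D. Tgfa, another EGFR ligand gene, had 2.43, 4.31 and 1.11 TPM. Egf averaged 0.643 ± 0.289 TPM (SD, n = 3), and Epgn had no counts, which allows up to 0.225 TPM.

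The genes listed for the shedding of neuregulins, enzymes and their helpers, were 7 of 7 at a mean of 1 TPM or more. Their list median was 31.9 ± 12.7 TPM (SD, n = 3). The lowest, Rhbdf1 and Rhbdf2, named after their values were seen, fell below 1 TPM in library D (0.967 and 0.496 TPM). Adam10, a sheddase, was highest, at 64.8, 70.5 and 58.3 TPM in A, B and D. Bace1, the protease known to process type III neuregulin 1 on axons, stood at 42.6, 48.3 and 28.7 TPM. Nrd1, which encodes nardilysin, an enhancer of shedding, averaged 33.3 ± 12.4 TPM.

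Of the 9 genes that restrain ErbB receptors, 7 were at 1 TPM or more, and the list median was 7.68 ± 2.08 TPM. Nedd4, a ubiquitin ligase gene with many substrates, had 408, 306 and 192 TPM in A, B and D. Rnf41, which encodes the ubiquitin ligase NRDP1 known to lower ERBB3, had 136, 138 and 103 TPM, above Erbb3 in each library. Ptpn12, a phosphatase gene, averaged 14.8 ± 2.02 TPM. Of the 4 receptor partners, 3 reached 1 TPM, with Pa2g4, which encodes the ERBB3-binding protein EBP1, at 273 ± 21.9 TPM, the scaffold gene Dlg4 at 9.19 ± 0.133 TPM and Erbin at 2.55 ± 0.652 TPM.

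All 15 effectors were at 1 TPM or more, and their list median was 16.3 ± 5.96 TPM. Mapk3, the gene of the kinase ERK1, was at 423, 538 and 458 TPM in A, B and D, the adapter gene Grb2 at 98.4 ± 9.91 TPM and the kinase gene Akt1 at 58.4 ± 6.92 TPM. Many receptors share these effectors, so their levels are not specific to ErbB signalling. Of the 7 transcription factors and cofactors known as targets in glia, 3 reached 1 TPM: Jun (37.4 ± 4.93 TPM), Etv5 (30.3 ± 14.2 TPM) and Nab1 (1.25 ± 0.333 TPM). Jun is also an immediate early gene of neurons. Egr2, the regulator of myelination, was named after its values were seen: it had 24, 40 and 13 counts, or 0.932, 1.48 and 0.296 TPM.

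**Figure D5:**
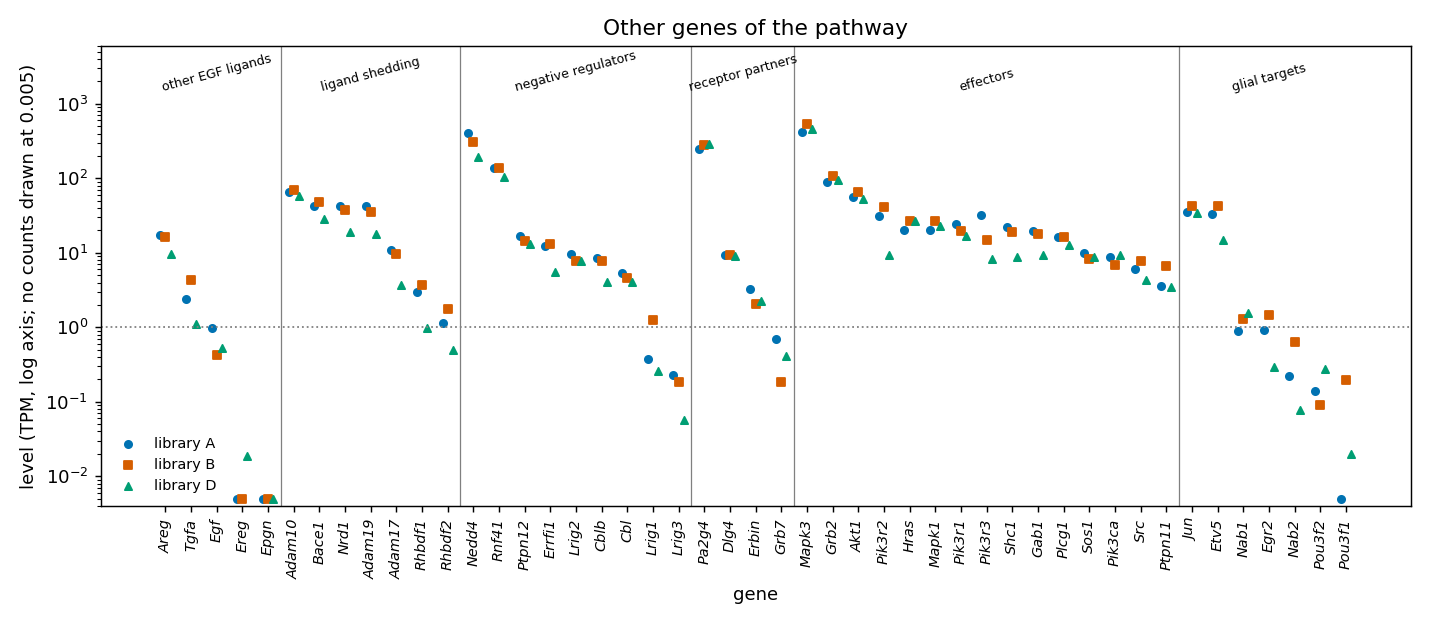
TPM in libraries A, B and D on a log axis for the 47 other genes of the pathway, grouped by role and ordered by mean level within a group, with genes without counts drawn at the foot of the axis. All genes of the shedding list and all effectors have means above 1 TPM, as do 2 of 5 other ligands and 3 of 7 glial targets.

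Between the libraries, 39 of the 47 pathway genes could be tested, and edgeR's goodness-of-fit test called none of them after Benjamini-Hochberg adjustment. Of all 13530 genes tested, 0.177% were called. At an unadjusted p under 0.05 there were 3 of the 39, against 827 of the 13530 genes. The 3 were Lrig1, Pik3r2 and Pik3r3, named after their values were seen. DESeq2 marked none of the 39 as a dispersion outlier.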

How the data were processed

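RNA of 3 pooled libraries was reverse transcribed and amplified with a SMARTer low-input kit, per the labels' protocols, without molecular identifiers, so Poisson intervals (95%) reflect counting alone. The deposited counts are whole reads per Ensembl gene, made by the authors with Subread and featureCounts 1.4.5 on GRCm38.p2 per the submitters' processing notes. The sources used here give neither strand use nor the treatment of multiply matching reads, so reads of antisense or overlapping genes cannot be separated. The deposited CPM equalled counts scaled to the library total, and the deposited RPKM that CPM per kilobase. TPM was computed from counts and deposited lengths. Symbols came from GENCODE M21 (40254 of 41388 genes matched); Nrdc was matched as Nrd1 through a RefSeq synonym. Members, lists and pairs were chosen with earlier results of these data known. Named genes were all members, the 3 highest and the uncounted genes of each list, pair genes and the 3 closest patterns of Nrg1, Erbb2 and Erbb3; others are said to be named after their values were seen. Variation was tested with edgeR 4.0.16 (TMM, filterByExpr, intercept-only fit, trended dispersion, chi-square of the deviance, Benjamini-Hochberg at 0.05) and tested on simulated data, where it made no false call, found most of the largest changes and missed the smallest. The simulation used the same dispersion for all genes and changed only genes with a higher mean CPM than Hbegf, Erbb2, Egfr and Nrg4. The quasi-likelihood test needs 2 groups. DESeq2 1.42.0 was an alternative. Log2 CPM used a prior count of 2. Separate pools give the n of 3. The edgeR p-values ask whether a gene's spread between the pools exceeds that of genes of like level, estimated from the same pools. The sign-flip permutation p is 0.25 whenever all 3 ratios share a sign, whatever their spread. Python 3.11.15, scipy 1.17.1 and R 4.3.3 were used.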

Additional observations from a re-analysis of the deposited data

How the results depend on the processing

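Over 9 log2 ratios (8 pairs and the summed ligands over receptors), 54 alternatives were computed: CPM, a pseudocount of 0.1 TPM, GENCODE M21 lengths (chosen after seeing the data) and leaving out each library. Direction was kept in 52. The exceptions were both Erbb3 over Sox10, at 0.84 as CPM and between -0.70 and 0.028 with a library left out, reversed without D; lengths differ between the genes of that pair, and otherwise the cause was not tested. The members at a mean of 1 TPM numbered 4 in all alternatives except a threshold of 0.5 TPM, which gave 6. Of all genes, the 24 called between libraries became 7 when A was left out, 2 for B and 27 for D, and DESeq2 dispersion outliers numbered 4. No member was called under any alternative, although Erbb2 had an unadjusted p under 0.05 with a common dispersion. The alternative with coding lengths from RefSeq proteins was not run. With at least 1 count allowed, the other 8 pairs could be computed, but their lowest counts of 3 to 9 make the ratios imprecise. Depth limits Erbb4, Btc, Nrg2, Egfr, Erbb2 and Nrg4.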
